A study of Mus musculus with 7 samples.

Results

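The Hox genes of the mouse were described here in 7 cultured fetal kidneys. Members were all genes of the deposited tables whose symbol is Hox followed by a cluster letter from a to d and a paralogue number, which gave 39 of the 23235 gene symbols, each with 1 entry per table and an estimate marked as good in all 7 tables. Of these, 11 lie in the HoxA cluster, 10 in HoxB, 9 in HoxC and 9 in HoxD.

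Hox genes encode homeodomain transcription factors that give cells their position along the body axis. In each cluster the paralogue number follows the order of the genes on the chromosome: low numbers are switched on first and furthest to the head, high numbers later and nearer the tail, and genes of the same number in different clusters share ancestry and much of their function. In the early kidney, the Hox11 proteins work with Eya1 and Pax2 to switch on Six2 and Gdnf in the metanephric mesenchyme, the Hox10 genes are needed for the renal stroma, and the Hoxb7 promoter is a common driver of transgenes in the ureteric bud. Hox13 genes mark the hindgut, the cloaca and the digits.

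All 7 kidneys were of strain C57BL/6 and had beta-catenin activated, the protein that carries the canonical Wnt signal to the nucleus. In 3 of them E2-2, a basic helix-loop-helix factor of the E protein class, was deleted, and in 4 it was wildtype, so the comparison asks what the loss of E2-2 adds in kidneys with active Wnt signalling. The pregnant mothers were given tamoxifen by injection at 10.5 days post coitum (2 mg per 40 g of body weight), and the kidneys were taken out at 10.5 days post coitum and cultured for 3 to 4 days. The alleles, the driver of the recombination, the cells in which it acts and the culture time of each library are not stated in the labels. Nor do the labels say that the libraries come from different animals or cultures, so a p-value here speaks only of the spread among these samples, which may be technical. In such whole-tissue RNA, fewer cells of a type and less RNA per cell cannot be told apart.

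Levels are in FPKM, fragments scaled to the length of the transcript and to the mapped total of the library, so levels of different genes are compared per length. Differences are E2-2 deleted minus E2-2 wildtype on the log2(FPKM + 1) scale, tested with limma over all 13468 genes with a mean of at least 1 FPKM. Inferred depths ran from 14.5 to 26.6 M (mega-fragments). Tcf4, which encodes E2-2, was at 33.5 to 42.0 FPKM in the deleted and 28.7 to 58.1 FPKM in the wildtype libraries. The deleted exons are not given, so this whole-gene value does not check the genotype. Defining kidney genes were present in every library, but E2-2 deleted replicate 2 stood apart: its summed level of 15 genes of the Hox11 kidney network was 140 FPKM, against 286 to 507 FPKM in the other 6 libraries. Over all genes tested, its median log2 difference from the wildtype mean was -0.16, against -0.03 to 0.05 in the other 6. Results are therefore also given without E2-2 deleted replicate 2. The deposited names of E2-2 deleted replicate 3 and E2-2 wildtype replicates 3 and 4 begin with BM and the other 4 with BI, prefixes whose meaning is not given.

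The kidneys transcribed most genes of the 4 clusters and little of groups 1 and 13. Of the 39 Hox genes, 22 had a mean over the 7 libraries of at least 10 FPKM, 10 lay between 1 and 10 FPKM, and 7 were lower, among them Hoxb1 and Hoxd1 at the head end and Hoxa13, Hoxb13, Hoxc12 and Hoxc13 at the tail end. The 10 highest were, in order, Hoxa10, Hoxb9, Hoxd10, Hoxc10, Hoxb7, Hoxb3, Hoxd8, Hoxb6, Hoxa11 and Hoxd9, with means from 67.2 FPKM for Hoxa10 to 27.7 FPKM for Hoxd9. All 3 genes of group 10 were among the first 4. Summed by paralogue number, group 10 held 131 to 174 FPKM per library and group 9 held 87.5 to 119 FPKM, while group 13 held 0.669 to 8.78 FPKM. Neighbours in the order of single genes often changed places: Hoxa10 was the highest Hox gene in 6 libraries and Hoxd10 in E2-2 deleted replicate 2.

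**Figure D1:**
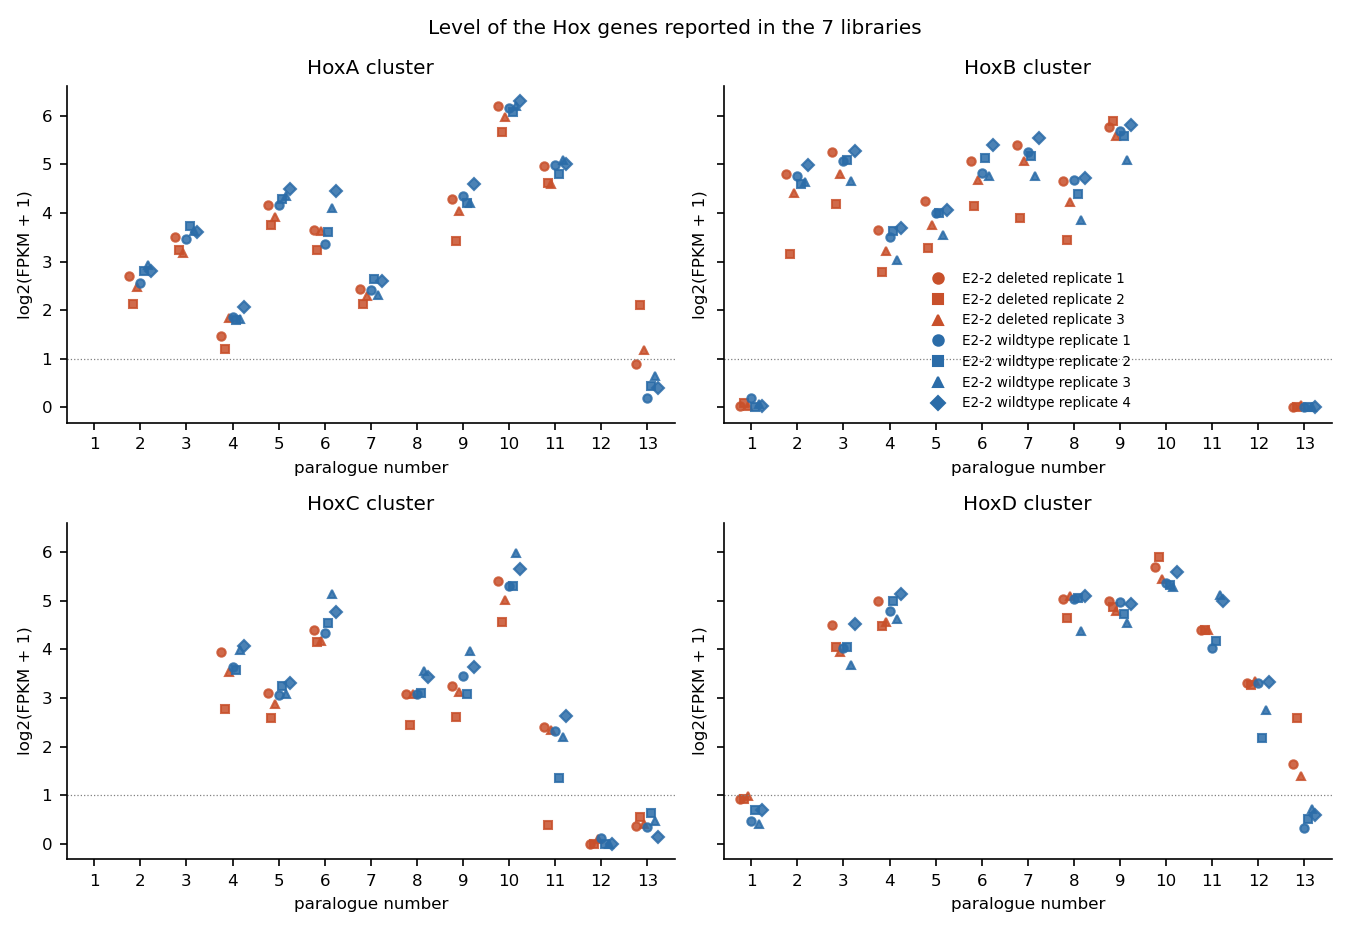
Level of the Hox genes reported here in the 7 libraries as log2(FPKM + 1), against paralogue number, 1 panel per cluster, with the dotted line at 1 FPKM; deleted libraries are orange and wildtype libraries blue, and the marker gives the replicate. Levels peak at group 9 or 10 in every cluster, and Hoxa13, Hoxd13 and Hoxd1 are the low genes whose orange points all lie above the blue.

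No Hox gene passed the limma test at an adjusted p of 0.05, as was so for every gene of the table (0 of 32 Hox genes tested and 0 of 13468 genes, 0.0% called), with smallest adjusted p-values of 0.795 and 0.732. At an unadjusted p under 0.05, 1 of the 32 Hox genes was higher in the deleted libraries (Hoxd13), beside 3.29% of all genes tested, and 4 were lower (Hoxa5, Hoxc6, Hoxa3 and Hoxc10), beside 1.2% of all. The count of lower genes rested on single libraries. With E2-2 deleted replicate 2 or E2-2 wildtype replicate 4 left out it was 0, with E2-2 deleted replicate 3 or E2-2 wildtype replicate 3 left out it was 1, and with E2-2 deleted replicate 1 left out it was 13, beside 4.74% of all genes in that fit. In 1 of the 32 genes, Hoxd13, the deleted libraries all exceeded the highest wildtype library, beside 2.84% of all genes tested, and in 0 of 32 they were all below the lowest one, beside 2.05% of all. Leaving out E2-2 deleted replicate 1 turned the latter count into 14, beside 10.6% of all genes with that library left out.

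In 25 of the 32 genes the deleted mean was below the wildtype mean on the log2 scale, with a median difference of -0.30, while over all genes tested 60.7% were below with a median of -0.05. Without E2-2 deleted replicate 2, 20 of 32 were below, beside 46.7% of all genes. The median was then -0.12 for the Hox genes and 0.01 for all genes. The 4 clusters were not alike in this count. All 9 tested HoxA genes (median -0.34), 7 of 8 HoxB genes (median -0.29) and all 7 HoxC genes (median -0.43) had a lower deleted mean, but only 2 of 8 HoxD genes did (median 0.09). Without E2-2 deleted replicate 2 the counts were 9 of 9 in HoxA (median -0.19), 3 of 8 in HoxB (median 0.03), 6 of 7 in HoxC (median -0.21) and 2 of 8 in HoxD (median 0.16), so the contrast of HoxB with HoxD rested on that library. Within the BI libraries the median over the 32 genes was -0.25 and within the BM libraries, with a single deleted library, it was -0.30; 24 genes were below in both and 5 above in both, and the sign turned for Hoxd3, Hoxd8 and Hoxd11.

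**Figure D2:**
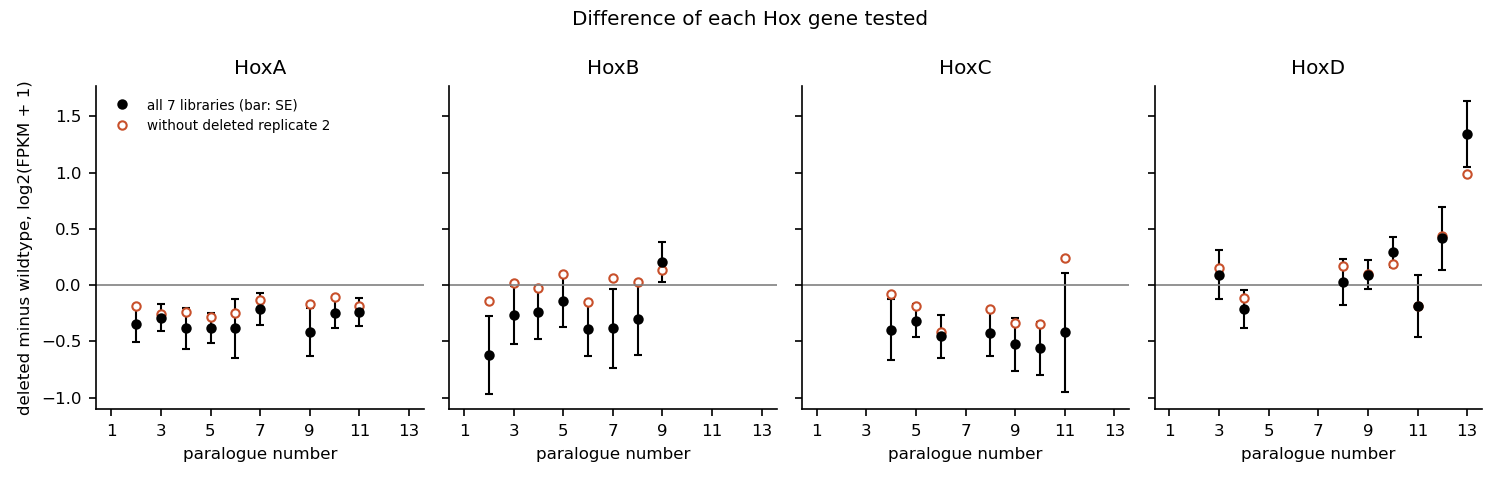
Difference between genotypes (deleted minus wildtype, log2(FPKM + 1)) of the 32 tested Hox genes against paralogue number, 1 panel per cluster; black points are fits to all 7 libraries with bars of 1 SE, and open orange points leave out E2-2 deleted replicate 2. The HoxA and HoxC points lie below 0 with all libraries, several HoxB points and Hoxc11 cross 0 without that library, and Hoxd13 stands above the rest at 1.34.

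The tail-end genes Hoxd13 and Hoxa13 and the head-end gene Hoxd1 were the members whose groups did not overlap, all 3 higher in the deleted libraries. With no minimum level, that was 3 of 39 Hox genes, beside 3.29% of 19354 genes. Hoxd13 (chromosome 2, 74506367 to 74509655), a gene of digit and genital development at the tail end of HoxD, was at 2.11, 5.02 and 1.64 FPKM in E2-2 deleted replicates 1 to 3 and at 0.260, 0.415, 0.636 and 0.502 FPKM in E2-2 wildtype replicates 1 to 4. The lowest deleted library was above the highest wildtype library, and the spread among the deleted came mostly from replicate 2. The fragments behind these values were about 104, 205 and 92 in the deleted and 11, 14, 38 and 26 in the wildtype libraries. Deleted exceeded wildtype by 1.34 (SE 0.30, with 0.66 to 2.03 as the 95% confidence interval; limma unadjusted p = 0.00204, adjusted p = 0.795; exact permutation p = 0.0286, the smallest that 35 splits allow). It was 0.99 without E2-2 deleted replicate 2, 1.70 within BI and 0.75 within BM. Hoxd13 reached the minimum of 1 FPKM only through the deleted libraries, so a difference was built into its being tested. It was also picked here because its groups did not overlap, and its permutation p follows largely from that choice.

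Hoxa13 (chromosome 6, 52208852 to 52210874), which patterns the hindgut, cloaca and limb ends, was at 0.864, 3.29 and 1.26 FPKM in the deleted and 0.144, 0.361, 0.554 and 0.319 FPKM in the wildtype libraries. As with Hoxd13, E2-2 deleted replicate 2 was the highest of the 7 and the groups did not overlap. These are low values, from about 21, 65 and 34 fragments against 3, 6, 16 and 8. With a mean below 1 FPKM it was outside the main test. In the fit with no minimum its difference was 0.97 (SE 0.28; limma adjusted p = 0.819, exact permutation p = 0.0286), with 1.18 within BI and 0.66 within BM. Hoxd1 (chromosome 2, 74601037 to 74603199), best known from pain-sensing neurons, was at 0.885, 0.904 and 0.983 FPKM in the deleted and 0.387, 0.608, 0.322 and 0.610 FPKM in the wildtype libraries. Here the 3 deleted libraries lay close together and replicate 2 was not the highest. Hoxd1 was low as well, from 27 to 40 fragments per deleted and 12 to 23 per wildtype library. Its difference with no minimum was 0.38 (SE 0.09, limma adjusted p = 0.819, exact permutation p = 0.0286). For Hoxa13 and Hoxd1, as for Hoxd13, the permutation p follows largely from picking genes whose groups did not overlap, and is no added support.

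The genes Hoxb1, Hoxb13, Hoxc12 and Hoxc13 were low and their groups overlapped. Hoxc13, a gene of hair and nail, was at 0.0986 to 0.546 FPKM over the 7 libraries. Hoxb1, a hindbrain gene, was at most 0.143 FPKM, and Hoxb13 and Hoxc12 were listed at 0 in 6 and 5 of the libraries. Evx1, a homeobox gene next to Hoxa13 and one of the 14 upstream and axial genes listed, was also low. It was at 0.778, 2.17 and 0.716 FPKM in the deleted and 0.181, 0.583, 0.171 and 0.164 FPKM in the wildtype libraries. Its groups did not overlap. Of those 14 genes, 2 were higher in every deleted library, beside 3.29% of 19354 genes with no minimum level. In 1 of the 14 every deleted library was lower, beside 1.85% of the 19354. Evx2, next to Hoxd13, was under 1 FPKM in all 7.

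**Figure D3:**
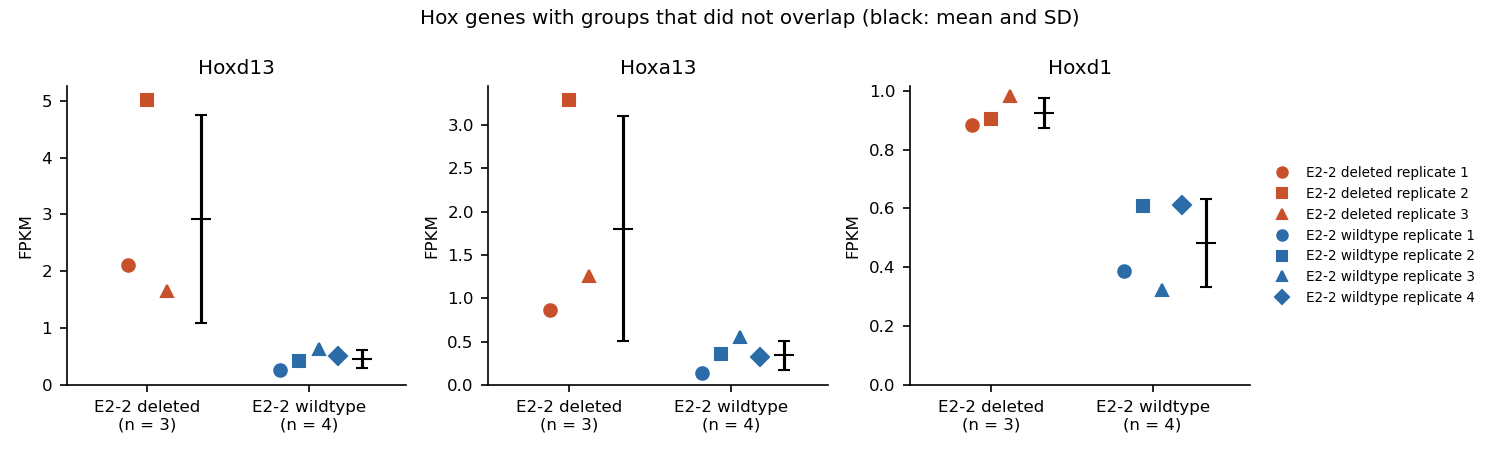
FPKM of Hoxd13, Hoxa13 and Hoxd1 in each library, with the y axis from 0 and different for each gene; orange points are the 3 deleted and blue the 4 wildtype libraries, and black marks give the mean and SD. In all 3 panels the lowest orange point is above the highest blue point, and for both group 13 genes E2-2 deleted replicate 2 sets most of the spread.

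Markers of other cell types were read beside these low genes, and their part in the result was not tested. The list of hindgut, cloaca and urothelium markers summed to 15.7 to 52.9 FPKM in the deleted and 2.92 to 34.5 FPKM in the wildtype libraries, highest in E2-2 deleted replicate 2 and lowest in E2-2 wildtype replicate 3. None of its 4 tested genes of 8 reached an unadjusted p of 0.05 in the limma test. In 2 of the 8, Trp63 and Tbx4, every deleted library was above every wildtype library, beside 3.29% of 19354 genes with no minimum level. Both were low, and for Trp63 the margin was 0.634 FPKM in the lowest deleted against 0.624 FPKM in the highest wildtype library. Of the defining markers of the list, Cdx2 of the hindgut and Tbx4 were under 1 FPKM in all 7 libraries, while the urothelial genes were present. Upk1a, Upk1b and Upk2 were at 11.3, 11.8 and 16.1 FPKM in E2-2 deleted replicate 2, where Hoxa13 and Hoxd13 were also highest. In the other 6 libraries Upk1a, Upk1b and Upk2 were at most at 5.15, 8.41 and 5.61 FPKM. Upk3a, also on the list, did not follow that pattern. It was at 11.9 FPKM in E2-2 deleted replicate 2 and at 14.8 and 14.7 FPKM in E2-2 wildtype replicates 2 and 4. Nor was a peak in E2-2 deleted replicate 2 particular to urothelial genes. Prrx1 (68.7 FPKM) and Prrx2 (37.8 FPKM) of limb mesenchyme, Sp7 of bone (31.2 FPKM) and Trpm1 of melanocytes (31.2 FPKM) were also highest there. Others of those lists were not, such as Ibsp of bone (47.8 FPKM) and Mlana of melanocytes (32.6 FPKM), both highest in E2-2 deleted replicate 3. The limb mesenchyme list summed to 36.6 to 107 FPKM in the deleted and 32.8 to 49.95 FPKM in the wildtype libraries, with Tbx5 and Tbx4 under 1 FPKM throughout. Its 3 tested genes went both ways, with differences of 0.84 for Prrx1, 0.53 for Prrx2 and -0.57 for Lmx1b, which were 0.44, 0.13 and -0.02 without E2-2 deleted replicate 2. Bone and tooth genes were higher on average in 7 of 7 tested, 5 of them at an unadjusted p under 0.05, beside 3.29% of all genes tested (summed 51.0 to 110 FPKM in the deleted and 10.03 to 51.6 FPKM in the wildtype libraries), as were melanocyte genes in 7 of 7, 6 of them at that level (summed 35.5 to 108 FPKM against 4.98 to 27.2 FPKM); 0 of these passed the adjusted limma test. Without E2-2 deleted replicate 2 both lists still had 7 of 7 higher. The medians were then 0.95 for bone and tooth (1.57 with it) and 1.84 for melanocyte genes (1.81 with it). Tyr and Tyrp1, among the 6 melanocyte genes, had wildtype means of 0.277 and 0.693 FPKM. They reached the minimum of 1 FPKM only through the deleted libraries, so a difference was built into their being tested. Both lists were chosen with earlier results of these data known, so these counts are descriptions.

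The stretches before the start sites of Hoxd13, Hoxa13 and Hoxd1 are shown with that of Hoxa5. Hoxa5 was the gene of smallest p among the lower ones, and at 12.4 to 21.5 FPKM its level was higher than theirs. Each is the 250 bases before the RefSeq start on GRCm38.p6, written 5′ to 3′ on the gene's strand (Hoxd13 chr2:74667975-74668224 on the plus strand, Hoxa13 chr6:52260881-52261130 on the minus strand, Hoxd1 chr2:74762730-74762979 on the plus strand, Hoxa5 chr6:52204588-52204837 on the minus strand). Capitals mark an E-box, CANNTG, the general form of the sites of basic helix-loop-helix factors. Which of its forms E2-2 binds was not tested.
Hoxd13: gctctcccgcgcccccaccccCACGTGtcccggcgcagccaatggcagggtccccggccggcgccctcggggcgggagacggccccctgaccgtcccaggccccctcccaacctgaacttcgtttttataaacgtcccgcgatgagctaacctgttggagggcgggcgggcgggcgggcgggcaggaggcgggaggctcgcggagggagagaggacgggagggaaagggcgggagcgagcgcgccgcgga
Hoxa13: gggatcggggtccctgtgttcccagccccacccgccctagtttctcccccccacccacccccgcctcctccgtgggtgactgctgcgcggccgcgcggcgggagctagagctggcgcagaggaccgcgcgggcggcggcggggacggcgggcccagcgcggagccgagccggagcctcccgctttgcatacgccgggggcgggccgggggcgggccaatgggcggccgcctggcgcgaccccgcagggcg
Hoxd1: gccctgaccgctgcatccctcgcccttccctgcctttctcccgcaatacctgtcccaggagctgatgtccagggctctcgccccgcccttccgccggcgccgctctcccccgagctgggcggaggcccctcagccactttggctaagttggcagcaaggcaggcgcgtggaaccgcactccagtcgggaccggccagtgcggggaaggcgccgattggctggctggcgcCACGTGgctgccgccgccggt
Hoxa5: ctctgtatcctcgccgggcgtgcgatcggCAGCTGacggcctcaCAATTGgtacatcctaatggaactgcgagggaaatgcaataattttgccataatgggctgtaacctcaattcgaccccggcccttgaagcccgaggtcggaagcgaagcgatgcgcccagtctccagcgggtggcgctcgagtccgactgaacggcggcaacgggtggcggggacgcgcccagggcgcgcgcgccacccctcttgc

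The stretch before Hoxd13 holds 1 E-box, CACGTG, 229 bases before the start, that before Hoxd1 holds 1, CACGTG, 21 bases before the start, that before Hoxa5 holds 2, CAGCTG and CAATTG, and that before Hoxa13 holds none of these letters. In RefSeq, 22 of the 39 Hox genes matched, with 24 start sites. CANNTG was found before 17 of these 24, beside 66.2% of 32851 mouse start sites, and its form CAGGTG (searched on both strands, and a part of the CANNTG count) before 0 of 24, beside 17.2%. The GC box CCGCCC, on either strand, was found before 10 of 24, beside 32.7%. With overlapping copies counted, there were 7 before Hoxd13, 5 before Hoxa13, 2 before Hoxd1 and 0 before Hoxa5. Hoxa6, which had a lower deleted mean, also had 5. The letters TATAAA, on either strand, were before 4 of 24, beside 12.4%. The share of G and C was 80.0% before Hoxa13, 74.4% before Hoxd13, 71.6% before Hoxd1 and 63.6% before Hoxa5, beside a median of 58.6% over the 24 sites and 52.4% over all. A match is a description of these letters and not of binding.

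In group 11, whose genes are needed together to form the metanephric kidney, Hoxa11 and Hoxd11 were well transcribed and Hoxc11 was low. Hoxa11 (chromosome 6, 52192105 to 52195766) was at 30.2, 23.6 and 23.3 FPKM in the deleted and 30.5, 26.9, 32.9 and 31.3 FPKM in the wildtype libraries. Its groups overlapped through E2-2 deleted replicate 1, and its difference was -0.24 (SE 0.12, limma adjusted p = 0.795, exact permutation p = 0.143). Its locus shares 525 bases with the antisense transcript Hoxa11as, which was at 10.8 to 20.6 FPKM in the deleted and 18.1 to 26.3 FPKM in the wildtype libraries. Whether counting used the strand is not given, so reads of the 2 cannot be told apart there. Hoxd11 (chromosome 2, 74520450 to 74522195) was at 19.98, 20.12 and 19.98 FPKM in the deleted and 15.2, 17.0, 33.7 and 31.2 FPKM in the wildtype libraries. The deleted libraries were almost equal and lay between the 2 BI and the 2 BM wildtype libraries, so the difference of -0.18 (SE 0.28) was 0.30 within BI and -0.67 within BM.

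Hoxc11 (chromosome 15, 102784957 to 102787132) was at 4.27, 0.305 and 4.03 FPKM in the deleted and 3.97, 1.56, 3.56 and 5.23 FPKM in the wildtype libraries. E2-2 deleted replicate 2 and E2-2 wildtype replicate 2 were the low ones, and the difference turned from -0.42 (SE 0.53) with all libraries to 0.24 without E2-2 deleted replicate 2. The 15 genes of the Hox11 kidney network list were counted beside group 11. That list was put together here and is no measure of Hox11 activity. Of its genes, 13 of 15 had a lower deleted mean (median -0.43), beside 60.7% of all genes tested. At an unadjusted p of 0.05 in the limma test there were 0, beside 3.29% of all genes higher and 1.2% lower. Six2, the nephron progenitor factor and a Hox11 target, was at 62.8, 2.69 and 33.5 FPKM in the deleted and 53.4, 29.0, 54.6 and 74.8 FPKM in the wildtype libraries. Gdnf, the other target, was at 12.4, 1.58 and 9.92 FPKM against 11.1, 7.89, 12.6 and 15.7 FPKM. For both genes E2-2 deleted replicate 2 was far below the other 6, and without it the difference was -0.13 for Six2 and -0.05 for Gdnf. Over the list, 10 of 15 then had a lower deleted mean, beside 46.7% of all genes tested, with a median of -0.05. The members of smallest p were Pax8 (-0.71, SE 0.35, limma adjusted p = 0.795, and -0.26 without that library) and Foxd1, a marker of renal stroma (-1.04, SE 0.53, limma adjusted p = 0.795, and -0.35 without it).

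In group 10, the paralogues with a role in renal stroma, Hoxa10 and Hoxc10 had a lower deleted mean and Hoxd10 a higher one. Hoxa10 (chromosome 6, 52181196 to 52190853) was at 72.3, 49.4 and 61.6 FPKM in the deleted and 70.9, 66.1, 72.7 and 77.6 FPKM in the wildtype libraries (difference -0.24, SE 0.14, limma adjusted p = 0.795, exact permutation p = 0.171, and -0.10 without E2-2 deleted replicate 2). Hoxc10 (chromosome 15, 102797227 to 102802328), also a gene of lumbar motor neurons, was at 41.5, 22.8 and 31.4 FPKM in the deleted and 38.4, 38.8, 62.2 and 49.6 FPKM in the wildtype libraries. In both genes E2-2 deleted replicate 1 lay among the wildtype libraries and the other 2 deleted libraries lay below them. The difference of Hoxc10 was -0.56 (SE 0.24, limma adjusted p = 0.795, exact permutation p = 0.171), -0.31 within BI, -0.80 within BM and -0.35 without E2-2 deleted replicate 2. Hoxd10 (chromosome 2, 74530005 to 74533159) was at 51.0, 58.6 and 42.9 FPKM in the deleted and 40.1, 38.9, 38.0 and 47.2 FPKM in the wildtype libraries. Its groups overlapped only in that E2-2 wildtype replicate 4 was above E2-2 deleted replicate 3, and its difference was 0.30 (SE 0.13, limma adjusted p = 0.795, exact permutation p = 0.0857), 0.46 within BI, 0.02 within BM and 0.19 without E2-2 deleted replicate 2.

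HoxA genes of groups 2 to 9 were transcribed at means of 2.34 to 17.3 FPKM, and each was lower on average in the deleted kidneys. Hoxa5 (chromosome 6, 52151753 to 52154586), known for its role in lung and thoracic patterning, was at 16.9, 12.4 and 14.1 FPKM in the deleted and 16.8, 18.5, 19.5 and 21.5 FPKM in the wildtype libraries. Only E2-2 wildtype replicate 1 was below a deleted library, by a small margin. Its difference was -0.38 (SE 0.13, limma adjusted p = 0.795, exact permutation p = 0.0857), and -0.28 without E2-2 deleted replicate 2. Hoxa3 (chromosome 6, 52119061 to 52163066), a gene of thymus and parathyroid, was at 10.4, 8.44 and 8.08 FPKM in the deleted and 9.98, 12.2, 11.4 and 11.1 FPKM in the wildtype libraries. Here too a single pair overlapped, E2-2 deleted replicate 1 above E2-2 wildtype replicate 1 (difference -0.29, SE 0.12, limma adjusted p = 0.795, exact permutation p = 0.0857). The deposited locus of Hoxa3 spans those of Hoxa4, Hoxa5 and Hoxa6, so how reads were divided among the 4 is uncertain. Hoxa2, Hoxa4, Hoxa6, Hoxa7 and Hoxa9 had differences from -0.42 (Hoxa9) to -0.21 (Hoxa7), which without E2-2 deleted replicate 2 ran from -0.25 (Hoxa6) to -0.13 (Hoxa7), and E2-2 deleted replicate 2 was the lowest library for 7 of the 9 tested HoxA genes.

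HoxB was the most abundant cluster in 5 of the 7 libraries, at 139 to 262 FPKM summed, and its genes from Hoxb2 to Hoxb8 were low in E2-2 deleted replicate 2. Hoxb7 (chromosome 11, 96147960 to 96151477) was at 41.4, 13.99 and 32.8 FPKM in the deleted and 37.2, 34.9, 26.0 and 45.5 FPKM in the wildtype libraries. Hoxb3 (chromosome 11, 96184440 to 96209244), a gene of hindbrain and neck, was at 37.4, 17.1 and 27.0 FPKM against 32.4, 32.9, 24.1 and 37.5 FPKM. Hoxb6 (chromosome 11, 96160485 to 96162883), a gene of lateral plate mesoderm, was at 32.5, 16.8 and 24.8 FPKM against 27.4, 33.8, 26.0 and 41.0 FPKM. For these 3 genes the other 2 deleted libraries were level with the wildtype or just below, and the differences of -0.38, -0.27 and -0.39 became 0.06, 0.02 and -0.15 without E2-2 deleted replicate 2.

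E2-2 deleted replicate 2 was the lowest of the 7 for every HoxB gene from Hoxb2 to Hoxb8, at 0.307 times the wildtype mean for Hoxb2, 0.539 for Hoxb3, 0.389 for Hoxb7 and 0.471 for Hoxb8. At Hoxb9 the order turned round. Hoxb9 (chromosome 11, 96132644 to 96137907), a gene of thoracic patterning, was at 53.4, 58.3 and 46.8 FPKM in the deleted and 50.5, 46.6, 32.95 and 54.8 FPKM in the wildtype libraries, with E2-2 deleted replicate 2 the highest (difference 0.21, SE 0.18, limma adjusted p = 0.795). The FPKM-weighted mean paralogue number of HoxB was 6.75 in that library and 5.75 to 6.10 in the other 6. Hoxb4 and Hoxb5 had differences of -0.24 and -0.14, and of -0.03 and 0.10 without that library.

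**Figure D4:**
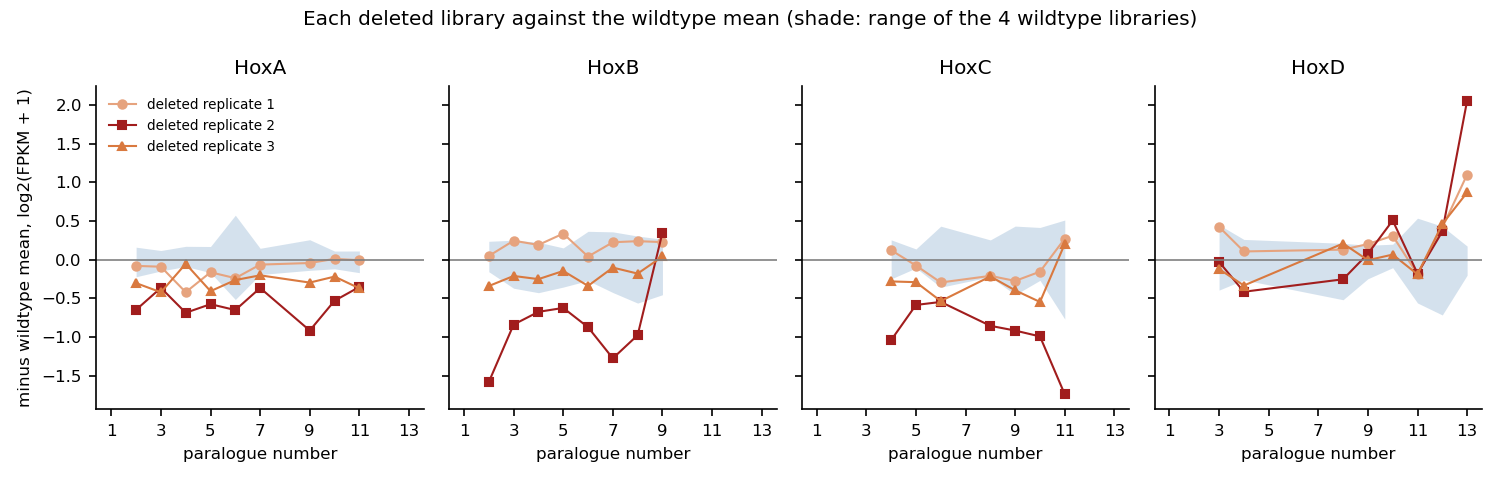
Each deleted library minus the mean of the 4 wildtype libraries, on the log2(FPKM + 1) scale, against paralogue number for the tested genes of each cluster; lines join genes of the same library and the blue shade spans the wildtype libraries. E2-2 deleted replicate 2 (dark squares) runs below the shade through most of HoxA, HoxB and HoxC, lies above it at Hoxb9, and is within or above it at most HoxD genes.

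HoxC was the least abundant cluster, at 60.9 to 148 FPKM summed, with E2-2 deleted replicate 2 the lowest library for all 7 tested genes. Hoxc6 (chromosome 15, 102839993 to 102842312), a gene of thoracic patterning, was at 20.2, 16.8 and 17.0 FPKM in the deleted and 19.3, 22.3, 34.1 and 26.5 FPKM in the wildtype libraries. The 2 BM wildtype libraries were above the rest, and the difference of -0.46 (SE 0.19, limma adjusted p = 0.795, exact permutation p = 0.114) was -0.16 within BI and -0.79 within BM. That pattern recurred in the cluster: both BM wildtype libraries were above both BI wildtype libraries in 5 of 7 HoxC genes and in 5 of 9 HoxA genes, but in 0 of 8 HoxB and 2 of 8 HoxD genes, beside 24.3% of all genes tested. Hoxc4, Hoxc5, Hoxc8 and Hoxc9 had means of 7.31 to 12.0 FPKM and differences from -0.53 (Hoxc9) to -0.32 (Hoxc5). Without E2-2 deleted replicate 2 these were smaller: -0.08 for Hoxc4, -0.18 for Hoxc5, -0.21 for Hoxc8 and -0.33 for Hoxc9.

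Of the 8 HoxD genes tested, 6 had a higher deleted mean. Hoxd8 (chromosome 2, 74543546 to 74545364) was at 31.6, 24.0 and 33.5 FPKM in the deleted and 31.6, 32.5, 19.8 and 33.5 FPKM in the wildtype libraries (difference 0.03, SE 0.20). Hoxd9 (chromosome 2, 74535820 to 74538265) was at 31.0, 28.3 and 26.7 FPKM against 30.7, 25.4, 22.5 and 29.5 FPKM (difference 0.09, SE 0.13). For both genes the values of the genotypes overlapped. Hoxd12, a gene of limb and genital ends, had a difference of 0.41 (SE 0.28), with 8.59 to 9.24 FPKM in the deleted and 3.54 to 9.05 FPKM in the wildtype libraries. Hoxd3 and Hoxd4 had differences of 0.09 and -0.21, and the deposited locus of Hoxd3 spans that of Hoxd4, so their split of reads is uncertain. E2-2 deleted replicate 2 was the lowest library for 1 of the 8 tested HoxD genes, against 7 of 9 in HoxA, 7 of 8 in HoxB and 7 of 7 in HoxC. The share of all genes that were lowest in that library was not counted.

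Summed over a cluster, the levels overlapped between the genotypes in all 4 clusters. HoxA summed to 148 ± 24.5 FPKM (SD, n = 3) in the deleted and 180 ± 15.8 FPKM (SD, n = 4) in the wildtype libraries. HoxB summed to 191 ± 53.2 FPKM (SD, n = 3) against 217 ± 40.3 FPKM (SD, n = 4), and HoxC to 83.4 ± 21.8 FPKM (SD, n = 3) against 118 ± 24.4 FPKM (SD, n = 4). HoxD summed to 184 ± 13.1 FPKM (SD, n = 3) against 175 ± 23.0 FPKM (SD, n = 4). As a share of all Hox FPKM in a library, HoxD held 27.5%, 36.1% and 29.0% in the deleted and 25.6%, 25.5%, 23.9% and 26.0% in the wildtype libraries, with no overlap between the genotypes. The shares of HoxA (24.0% to 24.7% in the deleted and 25.2% to 28.2% in the wildtype libraries) and of HoxC (12.0% to 14.5% against 14.9% to 22.6%) did not overlap either, in the other direction, while those of HoxB did (27.4% to 34.0% against 25.2% to 33.9%). The 4 shares of a library add up to 100%, so they are not independent. These sums and shares are descriptions with no test.

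**Figure D5:**
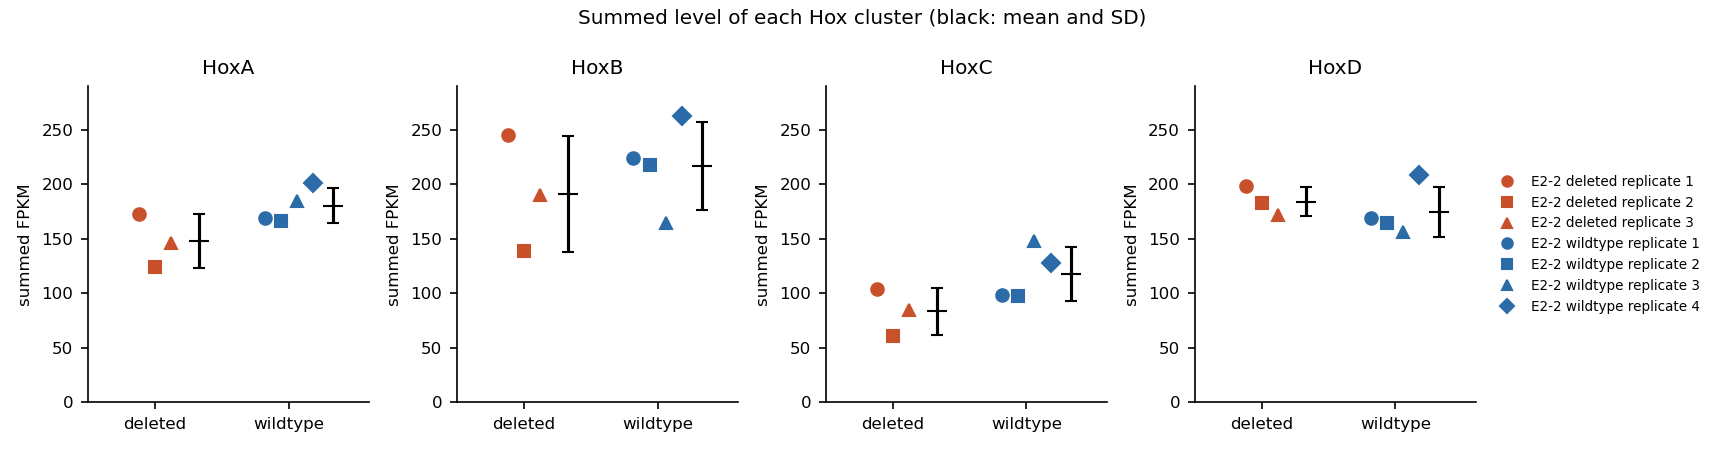
Summed FPKM of the genes of each Hox cluster in each library, with the y axis from 0; orange points are the deleted and blue the wildtype libraries, and black marks give the mean and SD. The groups overlap in each panel, E2-2 deleted replicate 2 (square) is lowest in HoxA, HoxB and HoxC, and it lies within the wildtype range in HoxD.

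No partner or regulator of Hox genes listed here passed the adjusted limma test, and neither did any other of the 13468 genes tested. Of all these genes, 60.7% had a lower deleted mean. At an unadjusted p under 0.05 in the limma test, 3.29% of them were higher and 1.2% lower. The TALE cofactors, homeodomain proteins of the Pbx, Meis and Pknox families that bind DNA with Hox proteins, were all 9 tested; 5 had a lower deleted mean, the median was -0.01, and 0 reached an unadjusted p of 0.05 in the limma test. Those of smallest p were Pbx3 (-0.24, SE 0.14, limma adjusted p = 0.795) and Pbx2 (-0.23, SE 0.14, limma adjusted p = 0.795), which were at -0.11 and -0.08 without E2-2 deleted replicate 2. Of the Polycomb and trithorax genes, which keep Hox loci silent or active, 25 of 29 listed were tested; 19 had a lower deleted mean, the median was -0.09, and 0 reached that level. Without E2-2 deleted replicate 2, 12 of the 25 had a lower deleted mean, beside 46.7% of all genes tested, and the median was 0.01. Those of smallest p were Jarid2 (0.25, SE 0.12, limma adjusted p = 0.795) and Cbx8 (-0.26, SE 0.14, limma adjusted p = 0.795).

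Of the 14 upstream and axial genes listed, 9 were under 1 FPKM in all 7 libraries, among them Cdx1, Cdx2, Cdx4 and T. Evx1 and Evx2 were on this list and also on that of the cluster neighbours. Of the 4 tested, Fgf8, a growth factor of the early nephron and the tail bud, was at 2.69, 0.271 and 2.26 FPKM in the deleted and 3.02, 2.94, 4.52 and 5.02 FPKM in the wildtype libraries. Every deleted library was below every wildtype library, as in 2.05% of all genes tested (difference -0.95, SE 0.38, limma adjusted p = 0.795). The difference was -0.46 without E2-2 deleted replicate 2. Aldh1a2, which makes retinoic acid, was at 77.8, 20.9 and 61.7 FPKM against 76.7, 59.9, 104 and 118 FPKM (difference -0.88, SE 0.44, limma adjusted p = 0.795). It was lowest in E2-2 deleted replicate 2, without which the difference was -0.32, and highest in the 2 BM wildtype libraries. Of the 18 listed neighbours of the clusters, 11 were tested. A lower deleted mean was found in 8 of these, beside 60.7% of all genes tested (median -0.13, and -0.02 without E2-2 deleted replicate 2). Of the 11, 0 reached an unadjusted p of 0.05 in the limma test, beside 3.29% of all genes higher and 1.2% lower. Those of smallest p were Cbx5 (-0.25, SE 0.16, limma adjusted p = 0.795, and -0.06 without that library) and Skap2 (-0.13, SE 0.09, limma adjusted p = 0.795).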

How the data were processed

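RNA from 7 cultured fetal kidneys was poly-A selected and sequenced from Illumina TruSeq libraries, per the labels' protocols. For each library the authors deposited a gene table of FPKM values with the bounds of their interval and a status, per the file headers. The submitters' processing notes list CASAVA 1.8.2, TopHat2 2.0.4 and Cufflinks 2.0.2 with no roles. The genome build is not given in the sources used here; starts in the tables count from 0 and are printed counted from 1. They are not GRCm38 positions and cannot be set against the RefSeq coordinates.

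Entries of 1 symbol were summed. Entries whose estimate had failed or lacked data, or whose locus was under 200 bases, were left out, and the 13468 genes with a mean of at least 1 FPKM were tested on log2(FPKM + 1) with limma 3.58.1 in R 4.3.3 (all 7 libraries, 2-sided, mean-variance trend, p adjusted over all these genes by Benjamini-Hochberg, threshold 0.05). A log2 difference on this scale understates the change of a low gene. The fit was tested on simulated data. In 1 table (E2-2 deleted replicate 2), 25 symbols differed from the other tables and were taken from them. Fragment numbers are an inference from the width of the deposited interval, the square of 2 times the FPKM over its distance to the upper bound, and 78.9% to 80.2% of those under 300 lay within 0.05 of a whole number. They cover counting error only.

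Hox genes named with all values were those of groups 10 and 11, the 10 of highest mean, those at an unadjusted p under 0.05 and those whose groups did not overlap. Of each regulator list, the 2 to 4 members of smallest p were to be named. Six2, Gdnf, Evx1, Evx2, Prrx1, Prrx2, Lmx1b, Hoxd12 and the defining markers were added after their values were seen. So were Upk1a, Upk1b, Upk2, Upk3a, Trp63, Tyr, Tyrp1, Sp7, Trpm1, Ibsp and Mlana. The members and all lists were chosen with earlier results of these data known. Of the 10 listed transcripts in the clusters other than protein-coding Hox genes, 9 are not analysed here. Some genes are not reported here. Replicate numbers come from the order of deposit and do not pair libraries. Alternatives were another pseudocount, other minimum levels, other scalings, library weights, the name prefix as a term or a split, other handling of rows and status, and leaving out each library.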

Additional observations from a re-analysis of the deposited data

Results flagged for a closer look

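Among the 42 sets of 4 wildtype values that were screened for a single library far from the others, 3 were picked out, where chance picks about 1 in 20. Hoxb5 was at 10.7 FPKM in E2-2 wildtype replicate 3 and at 15.0 to 15.6 FPKM in the other 3 wildtype libraries. Hoxd8 was at 19.8 FPKM in that same library and at 31.6 to 33.5 FPKM in the other 3. The summed level of all 39 Hox genes was 799 FPKM in E2-2 wildtype replicate 4 and 647 to 660 FPKM in the other 3.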

How the results depend on the processing

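With no minimum level and with library weights, 1 gene of the whole table passed the adjusted limma test, against 0 otherwise; no Hox gene did in any fit that was run. The count of Hox genes at an unadjusted p under 0.05 and higher in deleted was 3 of 39 with no minimum, beside 3.88% of all genes. It was 0 of 28 with a mean of at least 5 FPKM, beside 2.45%. With quantile normalization it was 2 of 32, beside 2.96%. Over the libraries left out it was 1 to 2 of 32, beside 1.52% to 6.19%. The count of lower ones was 2 with median-of-ratios scaling, beside 1.25% of all genes, and 7 with library weights, beside 2.47%. With the name prefix as a term it was 1, beside 0.861%. Over the libraries left out it was 0 to 13, beside 0.334% to 4.74%. Non-overlapping Hox genes higher in deleted numbered 3 with no minimum, beside 3.29% of all genes, and 0 with a mean of at least 5 FPKM, beside 2.33%. Over the libraries left out they numbered 1 to 2, beside 3.65% to 9.88%. Lower ones numbered 1 with median-of-ratios scaling, beside 1.95%, and 1 with quantile normalization, beside 2.43%. Over the libraries left out they numbered 0 to 14, beside 2.58% to 10.6%. There were 5 without E2-2 wildtype replicate 1, beside 4.95%, and 2 without E2-2 wildtype replicate 2, beside 7.27%. The median difference of the Hox genes was -0.30 in the main fit. It ran from -0.45 without E2-2 deleted replicate 1 to -0.12 without E2-2 deleted replicate 2. In every alternative it moved by less than 0.222, the pooled SD between libraries of the median Hox level within a genotype. That SD is not the error of the median difference. The sign turned in 18 of 572 single-gene values, in 10 genes. With library weights it did for Hoxb9 (-0.013), Hoxc11 (0.038), Hoxd3 (-0.062), Hoxd9 (-0.058) and Hoxd11 (0.030), and within a prefix for Hoxd3 (-0.15, BM), Hoxd8 (-0.21, BI) and Hoxd11 (0.30, BI). Over the libraries left out, the difference ran from -0.52 to 0.019 for Hoxb3, -0.38 to 0.10 for Hoxb5, -0.69 to 0.063 for Hoxb7, -0.58 to 0.031 for Hoxb8, -0.77 to 0.24 for Hoxc11, -0.0735 to 0.24 for Hoxd3, -0.14 to 0.17 for Hoxd8. The causes were not tested. No paired analysis was possible because the replicate numbers come from the order of deposit. The within-prefix split gives values with no test, so counts of calls were not made there. Depth limits the genes under 1 FPKM most, such as Hoxa13 with 3 to 65 fragments per library.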
